A study of Saccharomyces cerevisiae with 6 samples.

Results

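The wild-type course of a temperature shift in the budding yeast Saccharomyces cerevisiae consists of 3 arrays, 1 each at 60, 90 and 120 min at 37 °C, out of 6 arrays in all. The arrays were chosen by their labels alone, as all those of the strain with wild-type TRA1, and no measured value entered the choice. The other 3 arrays hold the same times of a strain with tra1-2ts, an allele of TRA1, and serve here only for a closing contrast. Both strains are MATa, carry the marker alleles leu2∆1 and ura3-52, ade2-101 and lys2-801, and his3∆200 with trp1∆63, and have the chromosomal TRA1 gene disrupted with HIS3. In the wild-type strain a centromeric LEU2 plasmid supplies TRA1, so its only intact copy is on a plasmid, and in the other strain the allele takes that place. TRA1 encodes the large activator-binding subunit shared by the coactivator complexes SAGA and NuA4. Cultures grew in YPD, a rich glucose medium, at 30 °C before the shift. Cells sampled ahead of the shift were not analysed here, so the course covers the second hour at 37 °C and says nothing of the first response. With 1 array per time, no single time has an error, and whether the 3 arrays came from 1 culture is not given in the sources used here.

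When yeast is warmed, the heat-shock factor Hsf1 and the stress factors Msn2 and Msn4 switch on genes for chaperones, trehalose and glycogen metabolism and antioxidant enzymes. At the same time, genes for making ribosomes are turned down and cells pause briefly in G1, before the START genes driven by SBF and MBF (G1 cyclins, DNA replication enzymes) are expressed again. These responses are known to be transient at a moderate temperature such as this one.

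Values were log2 signals for 5551 genes, 1 probe set per gene, of which 5381 code for proteins. Normalization by the authors made the arrays alike, with medians over all probe sets between 6.17 and 6.20, so every difference below is one from the common level of an array. Signals correlated across the 5551 genes with Pearson r of 0.992 between 60 and 90 min, 0.993 between 90 and 120 min and 0.99 between 60 and 120 min, a description in which genes are not replicates. The 4 mouse control probe sets, designed against mouse sequences, averaged 3.32, and 270 genes lay below that level on all 3 arrays. The genotype markers included URA3 at 3.40, 3.37 and 3.23 at 60, 90 and 120 min, next to the mouse controls, and HIS3, whose gene marks the disruption, at 8.49, 8.33 and 8.14. TRP1, whose labelled allele is trp1∆63, had 5.07, 5.06 and 5.41, above the mouse controls, so the marker alleles were not decided by these values. Of the genes specific to mating type a, the pheromone gene MFA2 had 11.67, 11.54 and 11.47, and of those specific to alpha, the receptor gene STE3 had 3.51, 3.33 and 3.66. The alpha gene SAG1, an agglutinin, had 6.29, 6.12 and 6.27, above the mouse controls, and probe sets of different genes cannot be ranked against each other, so the mating type was not decided by these values.

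Part of the variation between arrays followed the number of a probe set on the array design. An array's deviation from its strain's mean correlated between probe sets with adjacent numbers, with r of 0.260 to 0.326 over 6358 pairs in the 6 arrays, and with r between -0.0437 and 0.039 over 5842 pairs at a distance of 40 numbers. The correlation did not simply fade with distance: it was 0.113 to 0.181 at 12 numbers and 0.178 to 0.242 at 69. On the wild-type 90 min array, 30 genes lay at least 1.5-fold below both other times, and 26 of them (86.7%) had numbers from 8400 to 9800, which hold 1078 genes, or 19.4%. That range was set after the data were seen, so the 2 shares describe the array and are no test. The same range held 50 of the 197 genes at least 1.5-fold lower at 120 than at 60 min, and 12 of the 32 at least 2-fold lower. Differences from 60 to 120 min correlated with the median of neighbouring probe sets at r = 0.379 over 5549 genes. That neighbour median, with an SD over genes of 0.112, is given below beside named genes where it is at least 0.25 in either direction, and the cause of the pattern was not tested.

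**Figure D1:**
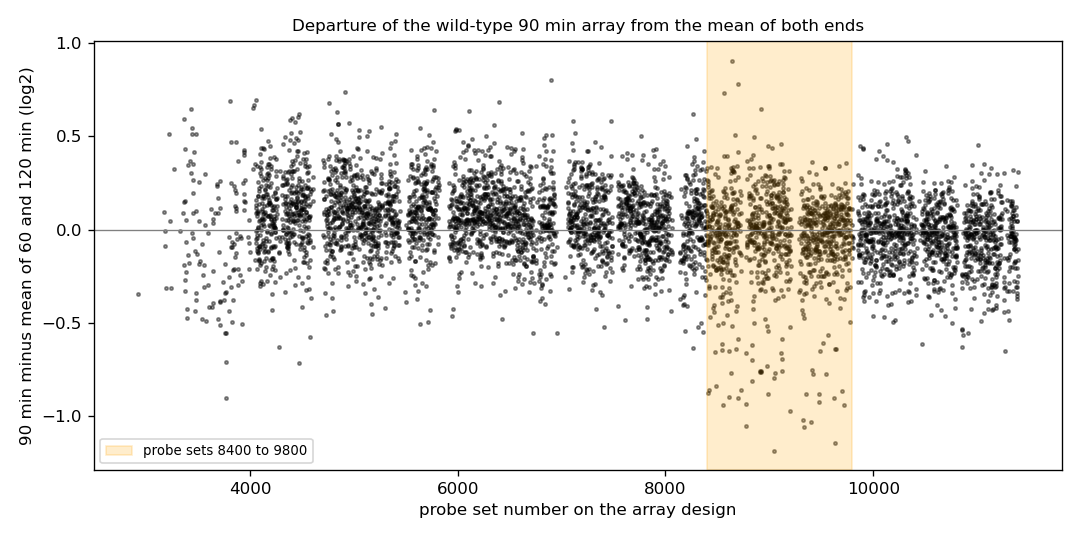
Departure of the wild-type 90 min log2 signal from the mean of the 60 and 120 min signals (y) against the probe set number on the array design (x), 1 point per gene. The shaded numbers 8400 to 9800 hold 26 of the 30 genes that lay at least 1.5-fold below both other times. That range was set after the data were seen.

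Between 60 and 120 min most genes kept nearly the same relative level, and more genes were lower than higher among those that differed. Genes of protein folding, general stress, storage carbohydrate and the tricarboxylic acid cycle were lower at 120 min, and genes of the G1 to S transition were higher. The median log2 difference, 120 minus 60 min, was -0.00 over all 5551 genes, with an SD over genes of 0.29, and 2739 genes (49.3%) were higher at 120 min by any amount. At 120 min 80 genes (1.44% of those tested) were at least 1.5-fold higher than at 60 min and 197 (3.55%) were at least 1.5-fold lower. A difference of at least 2-fold was present for 9 genes (0.162%) higher and 32 (0.576%) lower.

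The 90 min value lay between the ends for 2082 genes (37.5%), above both for 2023 (36.4%) and below both for 1446 (26.0%). Among genes at least 1.5-fold lower at 120 min it lay between for 152 of 197 (77.2%), and among those at least 1.5-fold higher for 60 of 80 (75.0%). A wide gap between the ends by itself makes a value between them likelier, so these shares describe the genes and are no test. At 90 min the genes lower at 120 min had covered a median of 41.8% of the difference and the higher ones 52.3%.

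A linear slope over the 3 times, fitted with limma across all genes, passed the threshold for 4 genes (0.0721%), and 538 genes had an unadjusted p under 0.05. The only residual in that fit is the departure of the 90 min array from the line, so the test asks whether the course is straight and steep, not whether a second culture would repeat it. Beside that 1 residual degree of freedom per gene, limma adds 6.786 prior degrees of freedom estimated from all genes. The standard errors given below are thus mostly pooled over genes, whose median was 0.189, and are not a gene's own measured error. HSP26 and SSA4 fell and RNR1 and HTB2 rose, each with limma's adjusted p = 0.0361. These calls were lost under quantile normalization, with a smallest adjusted p of 0.0731, and under centring on array medians, with a smallest adjusted p of 0.089. For every other gene below the wild-type course is given as measured, without a test of that course.

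**Figure D2:**
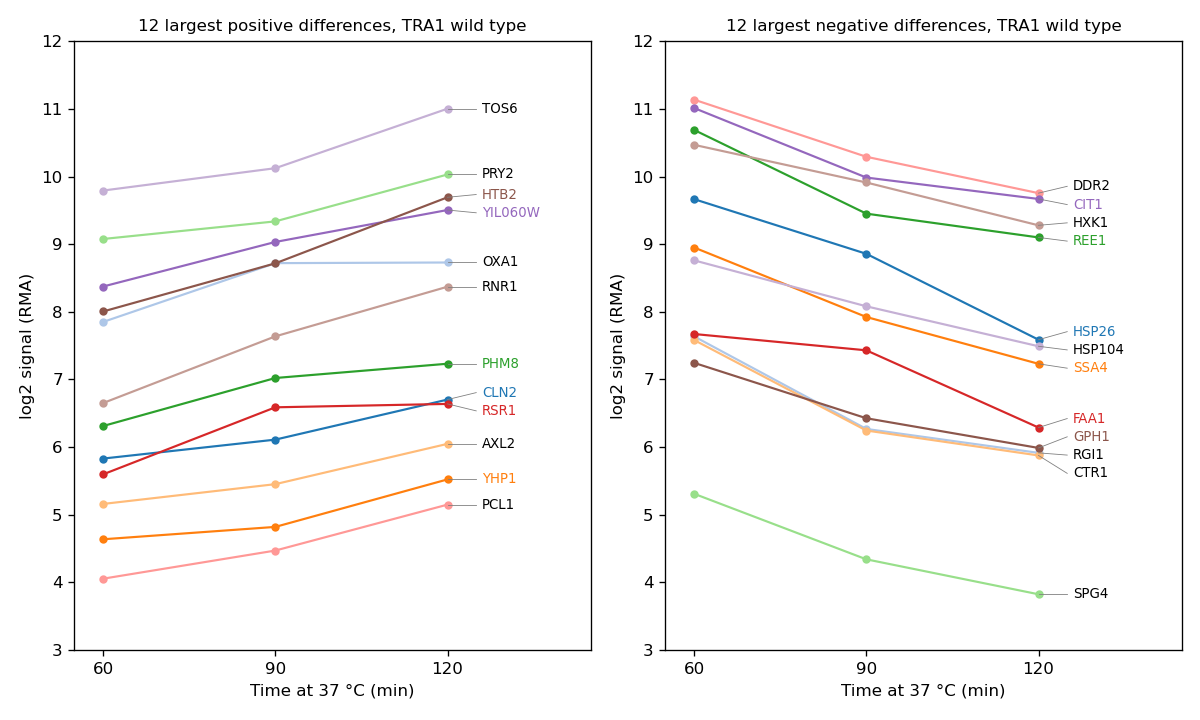
Log2 signals (y) of the 12 protein-coding genes with the largest positive (left) and negative (right) 120 minus 60 min differences at 60, 90 and 120 min at 37 °C (x) in the TRA1 wild type, among genes whose 90 min value lies between the ends; each point is 1 array. HSP26 had the largest negative difference, -2.08, and RNR1 the largest positive one, 1.72.

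Chaperone genes were lower at 120 min. HSP26, which encodes a small heat-shock protein that binds unfolded proteins, had log2 signals of 9.67, 8.86 and 7.59 at 60, 90 and 120 min. Its log2 difference of -2.08, with a standard error of 0.21 from the slope fit, was the largest of any gene in either direction. The stress-inducible Hsp70 gene SSA4 had 8.95, 7.92 and 7.23, a fall of 1.72 with a standard error of 0.20. Both genes were lower at each later time, and SSA4 had covered 59.7% of its difference by 90 min, against 38.9% for HSP26.

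The remaining chaperones followed at smaller sizes. HSP104, the disaggregase that pulls proteins out of aggregates, had 8.76, 8.08 and 7.49. STI1, a co-chaperone that links Hsp70 and Hsp90, had 10.86, 9.62 and 9.68, so that its whole difference of -1.18 was present at 90 min. The probe set of STI1 lies in the range of numbers described above for the 90 min array. Its neighbouring probe sets departed at 90 min from the mean of both ends by a median of -0.33. How much of the timing of STI1 belongs to the gene was not tested. The membrane-associated stress protein gene HSP12 had 12.27, 11.91 and 11.19, with most of its difference after 90 min. Of the 31 chaperone genes measured, 10 were at least 1.5-fold lower at 120 min (against 3.55% of all genes) and 0 were at least 1.5-fold higher, with a median difference of -0.43. The 10 included SSE2, the Hsp90 co-chaperones CPR6 and AHA1, and the mitochondrial disaggregase HSP78, at -0.93, -0.89, -0.84 and -0.74. The largest positive difference in the list was that of MDJ1, a mitochondrial co-chaperone, with 6.10, 6.50 and 6.59. The constitutive Hsp70 gene SSA1 had 14.45, 14.23 and 13.97. The list's median was -0.21 from 60 to 90 min and -0.26 from 90 to 120 min, so both steps were of similar size.

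Targets of Msn2 and Msn4 were also lower, with the larger step of the list's median before 90 min. Of 46 measured, 15 were at least 1.5-fold lower at 120 than at 60 min (against 3.55% of all genes) and 0 higher, with a median of -0.41. The median was -0.30 from 60 to 90 min and -0.04 from 90 to 120 min. DDR2, a small stress-induced protein of unknown role, had 11.14, 10.29 and 9.75. The hexokinase gene HXK1 had 10.47, 9.91 and 9.28. Both were lower at each later time, as were GRE3, an aldose reductase, with 8.41, 7.98 and 7.31, and the cell wall protein gene SPI1, with 9.86, 9.53 and 9.02 and its neighbouring probe sets at 0.29. Unlike the list's median, HXK1, GRE3 and SPI1 had the larger step after 90 min. After centring each array on its median, 12 of the 46 remained past 1.5-fold.

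Storage carbohydrate genes, several of them members of the Msn2 and Msn4 list too, were lower too, and the list's median difference from 60 min was -0.32 at 90 min and -0.34 at 120 min. GPH1, glycogen phosphorylase, had 7.25, 6.43 and 5.99, with neighbouring probe sets at a median of -0.27. PGM2, the main phosphoglucomutase, had 7.19, 6.59 and 6.04. The branching enzyme gene GLC3 had 6.27, 5.50 and 5.60, and the glycogen synthase gene GSY2 had 7.20, 6.58 and 6.59. TPS1, trehalose-6-phosphate synthase, had 8.65, 8.16 and 8.17. Of 20 trehalose and glycogen genes, 5 were at least 1.5-fold lower at 120 min (against 3.55% of all genes) and 0 higher. From 90 to 120 min the list's median was 0.01. The last 3 genes named were flat after 90 min, whereas GPH1 and PGM2 went on to lower values.

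Genes of oxidative metabolism were lower in part. CIT1, the mitochondrial citrate synthase, had 11.01, 9.98 and 9.67, with neighbouring probe sets at -0.33. The fumarase gene FUM1 had 10.20, 9.90 and 9.21, with its neighbours at -0.27, and the aconitase gene ACO1 had 11.13, 10.73 and 10.36. HAP4, the activating subunit of the regulator of respiratory genes, had 9.41, 8.93 and 8.78. Of 23 genes of the tricarboxylic acid cycle and its regulators, 6 were at least 1.5-fold lower (against 3.55% of all genes) and 0 higher, with a median of -0.21. Of 43 genes of the respiratory chain and ATP synthase, 1 was at least 1.5-fold lower and 0 higher, no more than the 3.55% over all genes, with a median of -0.07.

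Genes for growth without glucose had 7 of 30 members at least 1.5-fold lower (against 3.55% of all genes) and 0 higher, with a median of -0.25. Among them ATO2, a putative ammonium and acetate transporter, had 6.05, 5.44 and 4.97, with neighbouring probe sets at -0.27. The lactate dehydrogenase gene DLD1 had 10.75, 10.27 and 9.84. IDP2, cytosolic isocitrate dehydrogenase, had 6.26, 5.57 and 5.37. PCK1, which commits carbon to gluconeogenesis, had 8.62, 8.98 and 9.10, the reverse direction, so the list did not move as 1 block. In glycolysis and fermentation 4 of 24 genes were at least 1.5-fold lower, against the same 3.55%. They included the minor pyruvate kinase gene PYK2 with 6.91, 6.35 and 6.26 and the alcohol dehydrogenase gene ADH2 with 9.49, 9.39 and 8.74. The counts of these lists are not separate. HXK1 is counted here and among the Msn2 and Msn4 targets, and ACO1 in growth without glucose and the tricarboxylic acid cycle.

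Outside these lists, several of the lowest 120 to 60 min differences belonged to single genes. RGI1, a gene induced by respiratory growth, had 7.64, 6.27 and 5.91. REE1, implicated in the control of enolase, had 10.69, 9.45 and 9.10. CTR1, the high-affinity copper transporter of the plasma membrane, had 7.58, 6.25 and 5.88. Each of these had covered between 77.9% and 79.4% of its difference by 90 min. Neighbouring probe sets of RGI1, REE1 and CTR1 departed at 90 min from the mean of both ends by medians of 0.005, -0.21 and 0.10. How much of the timing of REE1 belongs to the gene was not tested. SPG4, needed for survival at high temperature in stationary phase, had 5.31, 4.34 and 3.82, ending near the mouse controls. FAA1, a long-chain fatty acyl-CoA synthetase, had 7.67, 7.43 and 6.29, and had covered 17.4% by 90 min, the reverse timing.

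**Figure D3:**
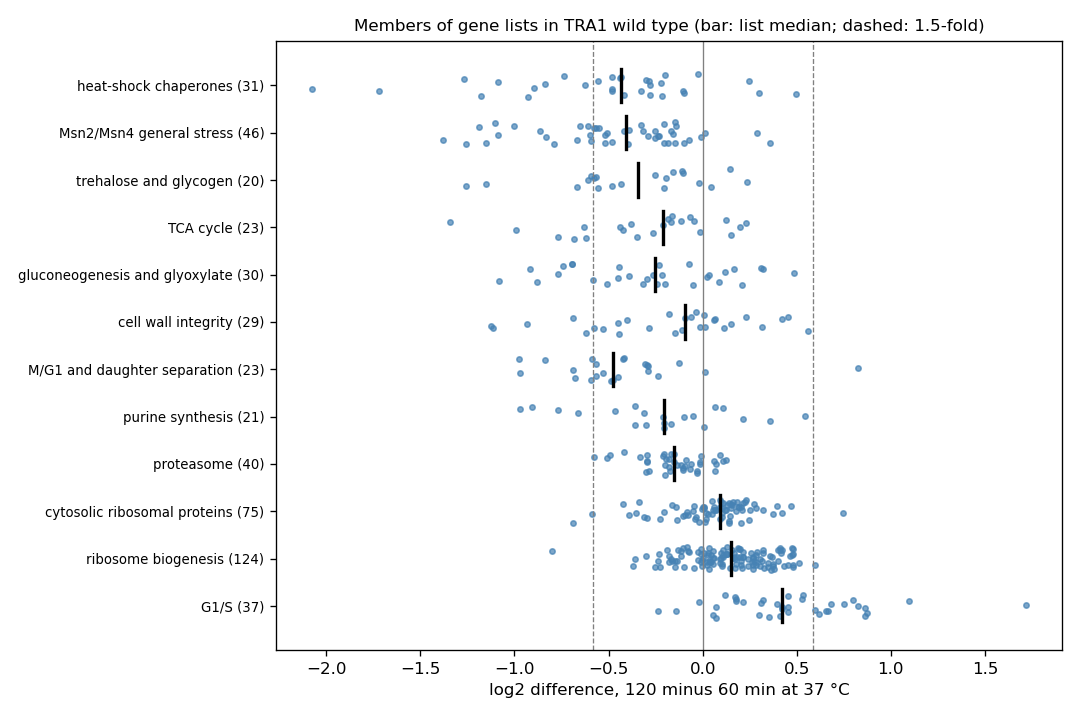
Log2 differences, 120 minus 60 min at 37 °C (x), of the members of 12 gene lists (rows, with the number measured) in the TRA1 wild type; each point is 1 gene, the bar is the list's median and the dashed lines mark 1.5-fold. The chaperone median is -0.43 with 10 of 31 genes past the lower line, and the G1/S median is 0.42 with 13 of 37 past the upper line.

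Genes expressed at the G1 to S transition were higher at 120 min. RNR1, the large subunit of ribonucleotide reductase, which makes the building blocks of DNA, had 6.65, 7.64 and 8.37, a rise of 1.72 with a standard error of 0.19, or 3.29-fold. The G1 cyclin gene CLN2 had 5.83, 6.11 and 6.70, and CLN1 had 4.20, 4.22 and 4.95. PCL1 and PCL2, G1 cyclins of the kinase Pho85, had 4.06, 4.47 and 5.15, and 4.95, 5.20 and 5.78. For all 4 cyclins the larger step came after 90 min. The mouse control probe sets, at 3.37, 3.003 and 3.59, also rose after 90 min. Their part in the timing of these cyclins, of which PCL1 and CLN1 had the lowest signals, was not tested.

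Replication and budding genes went the same way. The DNA ligase gene CDC9 had 6.52, 6.64 and 7.14, and CDC45, needed to start replication, had 4.45, 4.83 and 5.11. GIN4, a kinase of the bud neck, had 5.30, 5.71 and 6.16. The sliding clamp gene POL30 had 6.91, 7.47 and 7.44, below 1.5-fold and level after 90 min, with its neighbours at -0.27. Of 37 G1/S genes, 13 were at least 1.5-fold higher at 120 than at 60 min (against 1.44% of all genes) and 0 were lower by that much, with a median of 0.42. The median was 0.23 from 60 to 90 min and 0.22 from 90 to 120 min. With neighbouring probe sets subtracted, 14 were past 1.5-fold.

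HTB2 was the other gene that rose in the slope test, and the histone list beside it held no second gene past 1.5-fold. HTB2, 1 of the pair of genes for histone H2B, had 8.005, 8.72 and 9.69, a rise of 1.69 with a standard error of 0.19. Its near-identical partner HTB1 had 10.85, 11.13 and 11.22, and cross-reaction between the pair cannot be told apart here. Of 5 histone genes measured, 1 was at least 1.5-fold higher (against 1.44% of all genes), HTB2 itself, and the list's median was 0.37. TOS6, a cell wall protein gene and target of SBF, had 9.79, 10.12 and 11.002. RSR1, a Ras-like GTPase for choosing the bud site, had 5.60, 6.59 and 6.64. Its probe set has the suffix _i_at in place of the plain _at, and what that means for its signal was not tested. AXL2, a bud site landmark, had 5.16, 5.45 and 6.05. YHP1, a homeobox repressor of the M/G1 genes, had 4.64, 4.82 and 5.52. Among protein-coding genes with the 90 min value between the ends, the 12 largest positive differences also included 4 genes with other roles. PRY2, a secreted sterol-binding protein, had 9.08, 9.34 and 10.03, and PHM8, a phosphatase of nucleotides and lysophosphatidic acid, had 6.31, 7.02 and 7.23. OXA1, the insertase of the mitochondrial inner membrane, had 7.85, 8.72 and 8.73, with neighbouring probe sets at 0.36. YIL060W, an open reading frame of unknown role, had 8.37, 9.03 and 9.50 on the brightest of its 4 probe sets, but its difference was 0.15 as the mean of all 4, so its probe sets disagreed.

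Genes of the M/G1 interval and of daughter cell separation were lower, opposite to the G1/S genes. EGT2, a wall endoglucanase expressed after mitosis, had 8.89, 8.29 and 7.91. The daughter-specific glucanase gene DSE4 had 7.01, 6.38 and 6.04, with neighbours at -0.26, and the chitinase gene CTS1 had 10.13, 9.79 and 9.45. Of 23 genes, 7 were at least 1.5-fold lower (against 3.55% of all genes) and 1 higher (against 1.44%), PCL2, which the G1/S list also holds, with a median of -0.47. After centring on array medians 5 were lower by that much. Of 29 genes of the G2/M interval, 1 was at least 1.5-fold lower and 1 higher, near the shares over all genes, with a median of 0.03.

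**Figure D4:**
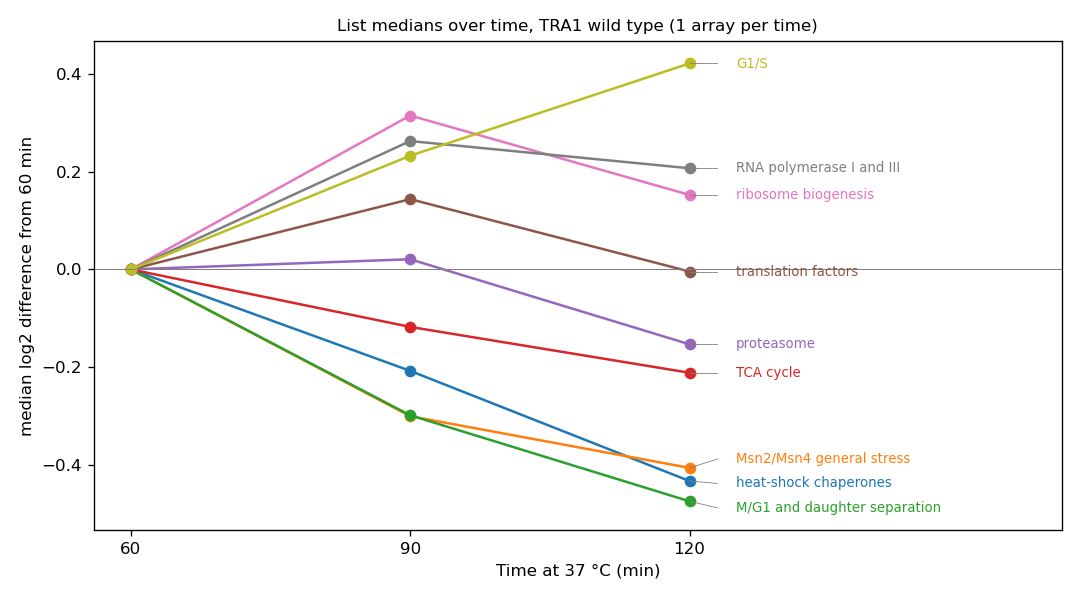
Median log2 difference from 60 min (y) of 9 gene lists at 60, 90 and 120 min at 37 °C (x) in the TRA1 wild type, 1 array per time. The ribosome biogenesis median is at 0.31 at 90 min and 0.15 at 120 min, whereas the G1/S median goes up and the chaperone median goes down at both steps.

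Ribosome biogenesis genes, which process and assemble ribosomal RNA, were highest at 90 min. Of 124 measured, 121 were higher at 90 than at 60 min (against 54.3% of all genes), and 112 were above both ends at 90 min (against 36.4%). The list's median was 0.31 from 60 to 90 min and -0.14 from 90 to 120 min, which left 0.15 over the hour. At 90 min 11 were at least 1.5-fold higher than at 60 min (against 1.21% of all genes), while at 120 min 1 was at least 1.5-fold higher than at 60 min and 1 lower.

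Single members showed the same course. UTP7, of the small-subunit processome, had 5.90, 6.59 and 6.49, and SSF1, of the large-subunit precursor, had 6.95, 7.68 and 7.43. RRP36, needed for early cuts in ribosomal RNA, had 5.67, 6.46 and 6.02. ENP1, of the small-subunit precursor, had 8.09, 8.72 and 8.19, back near its 60 min value. RRP7, a small-subunit assembly factor, was the member with the lowest difference, with 5.90, 6.31 and 5.10. The departure of the 90 min array from the mean of both ends had a median of 0.23 in the list and was positive for 122 of 124; with the departure of neighbouring probe sets subtracted it was 0.22 and positive for 121.

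Other parts of the protein synthesis apparatus also had more genes above both ends at 90 min than the 36.4% of all genes. This was not particular to them: the proteasome list had 23 of 40, zinc and copper 12 of 18, and leucine and branched chain 10 of 17. Other lists had smaller shares, such as the chaperones with 5 of 31. Of 20 subunits of RNA polymerases I and III, 19 were higher at 90 than at 60 min and 14 were above both ends, with medians of 0.26 for the first step and -0.12 for the second. Of 30 translation factors, 27 were above both ends, with medians of 0.14 and -0.14. Of 75 cytosolic ribosomal protein genes with a probe set naming 1 gene, out of 137 listed, 43 were above both ends; near-identical copies leave many of the rest without one. Among them RPL3, of the large subunit, had 11.59, 11.57 and 10.90, and RPL16B had 11.93, 11.32 and 11.34, with neighbours at -0.31 and -0.38. The difference of RPL9A was 0.75 on a probe set that also has the suffix _i_at. Of 71 mitochondrial ribosomal protein genes, 46 were above both ends.

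Cell wall integrity genes, induced through the kinase Slt2 when the wall is strained, had the opposite course. Of 29 measured, 17 lay below both ends at 90 min (against 26.0% of all genes), with a median of -0.22 from 60 to 90 min and 0.11 from 90 to 120 min. This was not particular to them: the DAN, TIR and PAU wall genes had 10 of 13, sporulation 11 of 20 and tRNA genes 46 of 91. Smaller shares were present elsewhere, such as 3 of 31 chaperones. The structural wall protein gene PIR3 had 9.64, 9.03 and 9.11, and PST1, a wall protein of the same response, had 10.88, 10.18 and 10.43. Over the hour 5 were at least 1.5-fold lower (against 3.55% of all genes) and 0 higher: CHS1, a chitin synthase gene that had 7.78, 7.13 and 6.65, and BAG7, PRM5, PIR1 and SRL3 at -1.11, -0.93, -0.69 and -0.62. The median departure of the 90 min array from the mean of both ends was -0.24 in the list, and -0.22 with neighbouring probe sets subtracted.

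Few single genes stood apart at 90 min beyond 1.5-fold. Above both ends by that much were 3 genes (0.054%), and the 5 farthest above were YGR079W, the tRNA gene YNCL0009C, KEI1, PFK27 and IZH4, at distances to the nearer end of 0.71, 0.64, 0.59, 0.58 and 0.57. Neighbouring probe sets of these 5 departed at 90 min from the mean of both ends by medians of 0.18, 0.06, 0.16, 0.03 and 0.10, in the same order. Their median 120 minus 60 min differences were -0.29 for PFK27 and -0.36 for IZH4. PFK27, which makes the glycolytic activator fructose 2,6-bisphosphate, had 5.58, 6.17 and 5.19. Below both ends by that much were 30 genes (0.54%), of which 26 had the probe set numbers described above. The 5 farthest below, ADI1, YMR316C-A, SNR11, PSD1 and HSH155, were at distances of -1.08, -1.02, -0.96, -0.95 and -0.94, and all had numbers from 8400 to 9800. Their neighbouring probe sets departed at 90 min from the mean of both ends by medians of -0.09, -0.21, -0.44, -0.27 and -0.22, in the same order. For PSD1 the neighbours' median 120 minus 60 min difference was -0.28. ADI1, of the methionine salvage pathway, had 9.11, 7.91 and 8.98. Without those numbers 4 such genes were left.

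TRA1 itself had 8.10, 8.55 and 8.68, a difference of 0.58, just under 1.5-fold. The SAGA and NuA4 lists both hold TRA1 itself. Past 1.5-fold in either direction were 0 of 19 SAGA genes and 1 of 13 NuA4 genes. Over all genes the shares were 1.44% higher and 3.55% lower, so these small counts do not set the lists apart. The NuA4 gene was the lower EAF7, with 6.26, 5.39 and 5.59 and its neighbours at -0.29. BAR1, the protease of a cells that degrades alpha factor, had 7.54, 7.06 and 6.52, while the receptor gene STE2 had 7.64, 7.94 and 7.53.

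The same hour in the tra1-2ts strain showed many of these differences at smaller size. At 120 min 74 genes (1.33%) were at least 1.5-fold higher than at 60 min in tra1-2ts and 108 (1.95%) lower, against 80 and 197 in the wild type. Of the 197 genes lower in the wild type, 159 were lower at 120 than at 60 min in tra1-2ts (against 53.4% of all genes), with a median difference of -0.25 in tra1-2ts and -0.77 in the wild type. Of the 80 higher ones, 64 were higher in tra1-2ts (against 46.6% of all genes), with a median of 0.36 in tra1-2ts and 0.70 in the wild type. These genes were chosen on the wild-type values, which by itself makes their wild-type differences the larger ones. Across all 5551 genes the differences of the strains, which share no array, correlated with r = 0.364.

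**Figure D5:**
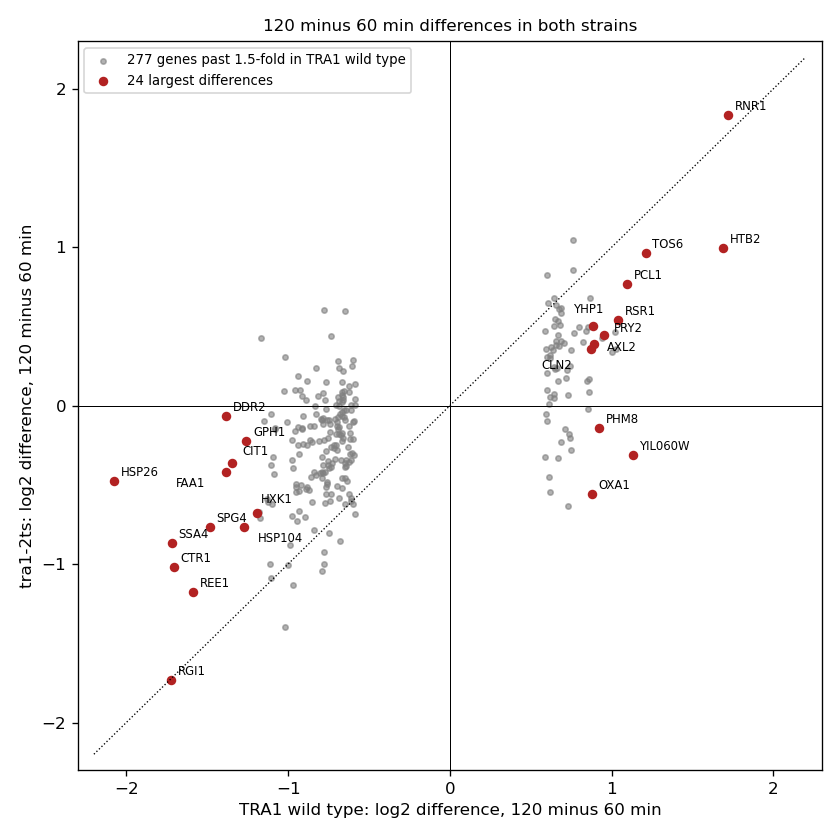
Log2 difference, 120 minus 60 min, in tra1-2ts (y) against that in the TRA1 wild type (x) for the 277 genes past 1.5-fold in the wild type; red points are the 24 genes of largest difference and the dotted line marks equal differences. RNR1 and RGI1 lie near the line, HSP26 and DDR2 lie far above it and OXA1 below it.

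Single genes ranged from equal to opposite. RNR1 had differences of 1.83 in tra1-2ts and 1.72 in the wild type, and RGI1 had -1.73 in tra1-2ts and -1.72 in the wild type. HSP26 had 10.07, 9.36 and 9.59 in tra1-2ts at 60, 90 and 120 min, a difference of -0.47, against -2.08 in the wild type. The slope difference, tra1-2ts minus wild type, was 1.60 for HSP26 with a standard error of 0.38, and limma's adjusted p was 0.667. DDR2 had differences of -0.07 in tra1-2ts and -1.38 in the wild type. No slope difference passed limma's adjusted threshold (0.0% of genes), with 393 genes at an unadjusted p under 0.05.

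By list, the chaperones had a median difference of -0.30 in tra1-2ts and -0.43 in the wild type, and the G1/S genes 0.26 in tra1-2ts and 0.42 in the wild type. Daughter separation genes had -0.31 in tra1-2ts and -0.47 in the wild type. Msn2 and Msn4 targets had -0.10 in tra1-2ts and -0.41 in the wild type, and trehalose and glycogen genes -0.04 in tra1-2ts and -0.34 in the wild type. The 90 min maximum of ribosome biogenesis genes was present for 47 of 124 in tra1-2ts (against 28.3% of all genes there) and 112 of 124 in the wild type (against 36.4%), with medians from 60 to 90 min of 0.07 in tra1-2ts and 0.31 in the wild type. With 1 array per strain and time, these list differences have no test, and what belongs to the strain and what to a single array cannot be told apart.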

How the data were processed

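Per the labels' protocols, total RNA received a biotin label with a kit that primes on poly(A) tails, and was hybridised to expression arrays. The authors' deposited values are log2 signals of RMA in the R package oligo, per the submitters' processing notes, with no version given. RMA corrects background, quantile-normalizes the arrays and summarises each probe set, which hides a change common to all messenger RNA. No depth applies to arrays, and the number of arrays limits the precision.

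Of 6776 probe sets, 5668 name 1 gene, 183 several and 925 none, and only the first were used. Symbols came from RefSeq genes of assembly R64, with all 5668 matched. Where 91 genes had several sets, the brightest over the 3 wild-type arrays was used. Differences are 120 minus 60 min, counted past 1.5-fold and 2-fold. Slopes over minutes were fitted with limma 3.58.1 in R 4.3.3, two-sided, with Benjamini-Hochberg adjustment over 5551 genes at 0.05 and 1 residual degree of freedom. The slope difference used all 6 arrays.

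Array titles share a number at each time, which the labels give, so equal numbers mark a time point. Across genes, the deviations of the paired arrays from their strain means had r = 0.310 (60 min), r = 0.0656 (90 min) and r = 0.330 (120 min).

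The genes and 56 lists were chosen with earlier results of these data known. Named were the 12 largest differences each way among protein-coding genes with 90 min between the ends, the 5 farthest above and below both ends at 90 min, up to 4 members of each list with at least 3 genes past 1.5-fold, markers, and genes passing the slope test. Other named list members, among them those of ribosome biogenesis, were chosen after their values were seen. The neighbour median takes the probe sets at 11 number distances to either side, with at least 6 present, and was added after seeing the data. Alternatives were quantile normalization, centring, filters on low values, other probe set rules, moderation with a trend, log2 of minutes, a fit over all 6 arrays, the time point as a block and each array left out. The table holds 0 columns of other samples.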

Additional observations from a re-analysis of the deposited data

Results flagged for a closer look

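Among the 101 named genes, 5 had courses that ran steadily in opposite directions in the strains over the 3 times, and limma's test of the slope difference did not pass for any of them. OXA1 had 8.54, 8.49 and 7.98 in tra1-2ts at 60, 90 and 120 min, against 7.85, 8.72 and 8.73 in the wild type, a slope difference of -1.44, tra1-2ts minus wild type, with limma's adjusted p of 0.667. IDP2 had 4.16, 4.18 and 4.31 in tra1-2ts, against 6.26, 5.57 and 5.37 in the wild type, a difference of 1.04 with limma's adjusted p of 0.667. PYK2 had 6.24, 6.32 and 6.33 in tra1-2ts, against 6.91, 6.35 and 6.26 in the wild type, a difference of 0.74 with limma's adjusted p of 0.667. STE6, the a-factor exporter, had 6.55, 6.71 and 7.03 in tra1-2ts, against 5.98, 5.90 and 5.55 in the wild type, a difference of 0.91 with limma's adjusted p of 0.667. HIS3 had 8.45, 8.46 and 8.50 in tra1-2ts, against 8.49, 8.33 and 8.14 in the wild type, a difference of 0.40 with limma's adjusted p of 0.727. For IDP2 the strains were farthest apart at 60 min, and OXA1 was higher in tra1-2ts at 60 min and lower there at 90 and 120 min.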

How the results depend on the processing

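The counts of genes at least 1.5-fold higher and lower at 120 than at 60 min, 80 and 197, were 94 and 191 under quantile normalization, 94 and 182 after centring on array medians and 68 and 164 with neighbouring probe sets subtracted. The count at least 2-fold higher, 9, was 4 with neighbours subtracted. The count at least 1.5-fold below both ends at 90 min, 30, was 4 without probe sets 8400 to 9800. The wild-type slope passed for 4 genes, for 0 under quantile normalization, centring, a filter at the lower quartile or the fit over all 6 arrays, for 18 on log2 of minutes and for 11 without probe sets 8400 to 9800. Leaving out each wild-type array in the fit over both strains gave 252 to 517 calls, where the residual comes from tra1-2ts alone and the lone pair is assumed to vary alike. The slope difference was 0 throughout, also with the time point as a replicate block, with 478 genes at an unadjusted p under 0.05 and a smallest adjusted p of 0.351 there, except that leaving out 1 array gave 0 to 210, being 90, 83 and 210 without the 60, 90 and 120 min wild-type array by the same construction, and 0 without each tra1-2ts array. Of the 120 minus 60 min differences of the 101 named genes under quantile normalization, centring, the mean of all probe sets and subtraction of neighbours, 377 moved by less than the gene's residual spread in the slope fit, 27 by more, and 0 past 1.5-fold turned sign. With no replicate at any time, array and time cannot be told apart, and signals near the mouse controls limit what low genes can show.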

Other observations

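Metal and nutrient genes held several large differences in the wild type. The shares over all genes, beside which the counts here stand, were 3.55% at least 1.5-fold lower at 120 than at 60 min and 1.44% higher. Of 27 iron genes, 3 were lower by that much and 1 higher. FRE1, the plasma membrane ferric and cupric reductase, had 6.60, 5.58 and 5.50 at 60, 90 and 120 min, and FIT3, a mannoprotein that retains iron carriers in the wall, had 8.92, 8.38 and 8.002. The iron permease gene FTR1 had 6.46, 6.94 and 7.23, and its partner oxidase FET3 had 8.09, 8.44 and 8.66, so uptake genes differed in direction. Of 21 purine and one-carbon genes, 4 were lower by that much, with ADE17, of the last steps of purine synthesis, at 9.36, 8.96 and 8.39 and the glycine cleavage gene GCV1 at 9.57, 9.13 and 8.66. In the vacuole list 4 of 22 were lower, among them the aminopeptidase genes APE3 at 11.09, 10.87 and 10.14 and APE1 at 8.48, 7.77 and 7.61. Of 27 histidine, tryptophan and GCN4 genes 3 were lower, with HIS4 at 9.50, 9.32 and 8.54, whose neighbouring probe sets had a median of -0.30. SNZ1, of vitamin B6 synthesis, had 9.12, 8.87 and 7.96, and the DNA glycosylase gene MAG1 had 5.27, 4.97 and 4.26.

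Most tRNA and snoRNA genes were higher at 120 than at 60 min, although the labelling primes on poly(A) tails, which mature forms lack. Of 91 tRNA genes, 76 were higher (against 49.3% of all genes) and 15 were higher by at least 1.5-fold (against 1.44%), with a median of 0.24. With neighbouring probe sets subtracted these were 10 past 1.5-fold and a median of 0.17. Of 57 snoRNA genes, 43 were higher, 1 by at least 1.5-fold, and 2 were lower by that much. The 4 rRNA probe sets had a median difference of -0.53 from 60 to 90 min and 0.73 from 90 to 120 min, and their 120 minus 60 min median of 0.24 was 0.00 with neighbours subtracted. Other classes did not share the direction, with 2 of 4 snRNA genes higher, at a median of -0.12, and the RNase P RNA at -0.34. The mouse control probe sets went the same way, at 3.37, 3.003 and 3.59, and their part in these values was not tested.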
